A study of Homo sapiens with 2 samples.

Results

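The mRNA levels of 9 genes tied to drug resistance were examined in the established human glioblastoma line U87, out of 41582 genes in the whole table. The 9 genes were taken by name: the ABC transporters ABCB1, ABCC1, ABCC2, ABCC3, ABCC4, ABCC5 and ABCG2, the vault gene MVP, and MGMT. One culture received CCA-1.1, a curcumin analog, and the other its solvent DMSO, each for 72 h, and both were labelled wild type. The study also measured the cytotoxicity of CCA-1.1 beside temozolomide and listed ABCB1 and ABCG2 among its predicted targets of CCA-1.1 in glioblastoma. Those are predicted protein targets, which mRNA levels do not check. The comparison here shows only whether the mRNA of resistance genes differed between the 2 libraries. The dose used for sequencing is not given in the sources used here. There was 1 library per condition, so no value has a replicate error, no difference was tested, and every difference is one between 2 libraries that may also differ for reasons other than CCA-1.1.

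ABC transporters use ATP to move substrates across membranes, and several of them pump drugs out of tumor cells and out of the endothelium of the blood-brain barrier. The ABCC proteins (multidrug resistance-associated proteins) export mainly organic anions and glutathione or glucuronide conjugates, while ABCB1 (P-glycoprotein) and ABCG2 (breast cancer resistance protein) take many hydrophobic drugs. MGMT removes alkyl groups from guanine in DNA and so repairs the lesion by which temozolomide kills cells, and in glioblastoma its promoter is often silenced by methylation.

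Levels are in TPM, reads of a transcript relative to its length and to the library total, so genes can be compared with each other. TPM does not show the read depth, and no counting error can be given. Differences are log2(TPM + 1) of the CCA-1.1 library minus log2(TPM + 1) of the DMSO library, which shrinks the difference of genes at low TPM.

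The 9 genes covered a wide range, with MVP at the top and MGMT at 0. In the DMSO library the order was MVP (109.2 TPM), ABCC2 (39.6 TPM), ABCC3 (20.7 TPM), ABCC1 (20.1 TPM), ABCC4 (14.9 TPM), ABCC5 (3.42 TPM), ABCG2 (1.11 TPM), ABCB1 (0.03 TPM) and MGMT (0 TPM). The order was the same in the CCA-1.1 library, where MVP was at 99.7 TPM, ABCC2 at 36.2 TPM, ABCC3 at 22.6 TPM, ABCC1 at 18.6 TPM, ABCC4 at 16.2 TPM, ABCC5 at 4.43 TPM, ABCG2 at 1.35 TPM, ABCB1 at 0.01 TPM and MGMT at 0 TPM. Without replicates, it cannot be said which neighbours in this order differ beyond their spread, and ABCC3 and ABCC1 were only 0.61 TPM apart with DMSO and 4.01 TPM apart with CCA-1.1.

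**Figure D1:**
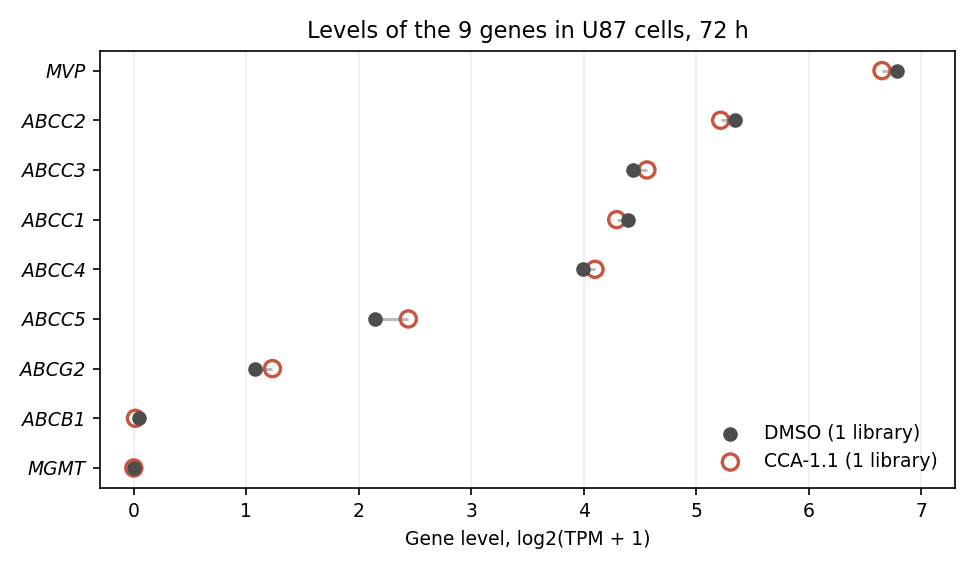
Gene levels on the log2(TPM + 1) scale (horizontal axis) for the 9 genes (vertical axis, ordered by the DMSO level), with filled points for the DMSO library and open circles for the CCA-1.1 library. MVP and 4 ABCC genes lie well to the right, ABCB1 and MGMT lie at or next to 0, and both libraries give the same order.

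None of the 9 genes passed a 2-fold difference, against 1.53% of all 41582 genes. Of the 15485 genes whose mean was at least 1 TPM, 551 passed it. At shares this small, a set of 9 genes with no call is not set apart from other genes. With a pseudocount of 1 TPM none passed a smaller limit of 0.32 in size on the log2 scale either, which was passed by 10.2% of all genes and by 18.3% of the 15485 genes whose mean was at least 1 TPM. A mean of at least 1 TPM was reached by 7 of the 9 genes, all but ABCB1 and MGMT. Of the 9, 4 were higher in the CCA-1.1 library (ABCC3, ABCC4, ABCC5 and ABCG2), 3 were lower (ABCC1, ABCC2 and MVP), MGMT was equal at 0, and ABCB1 was too close to 0 for a direction to be read. The median difference of the 7 genes was 0.11, and that of the 15485 genes was 0.03, with 5th and 95th percentiles of -0.40 and 0.53.

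**Figure D2:**
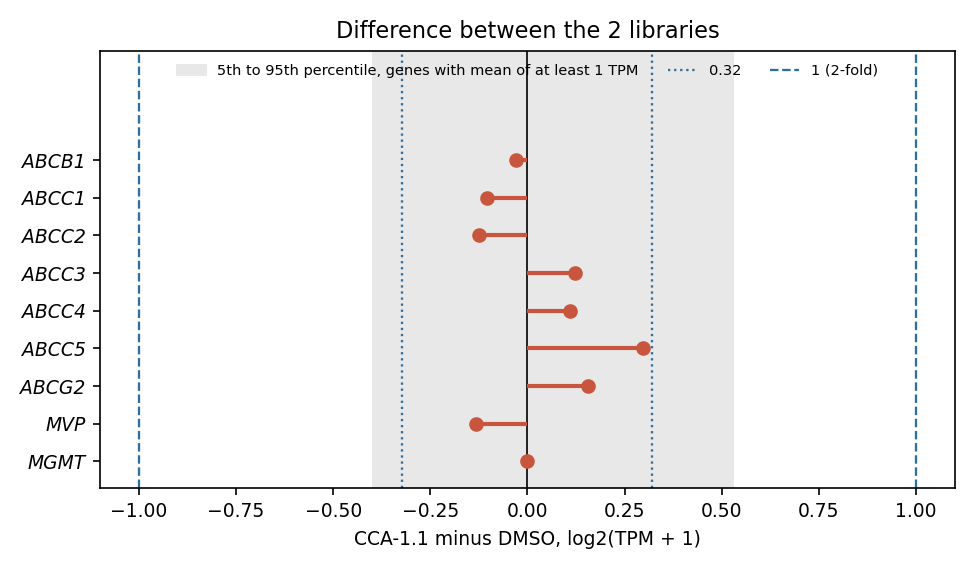
Difference of each gene on the log2(TPM + 1) scale, CCA-1.1 minus DMSO (1 library each), with the band from the 5th to the 95th percentile of genes averaging at least 1 TPM and lines at 0.32 and 1 (2-fold) in size. All 9 points lie inside the band and inside the lines at 0.32, and ABCC5, at 0.30, is the nearest to a line.

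MGMT (Entrez identifier 4255, chromosome 10 from 129467241 to 129770983 in GRCh38.p14, as all gene positions here) has 1 transcript in the table. This transcript was listed at 0 TPM in both libraries, so no fold change is given. A value of 0 in such a table can be a failed estimate, and whether that of MGMT is one was not tested. None of 10 housekeeping genes looked at was at 0 in either library. The lowest of them was at 26.2 TPM, so they cannot tell whether the 1 MGMT transcript was wrongly put at 0. Since TPM keeps no read depth, the level of MGMT that could have gone undetected is not known. The genes LOC124902531 and LOC105378560, which overlap MGMT, were also at 0 in both libraries.

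Promoter sequences are shown for MGMT, the gene listed at 0, and for ABCC4 and ABCC2, which were expressed. Each window is from RefSeq (GRCh38.p14), runs from 250 bases before to 50 bases after the start of the gene, is written 5′ to 3′ on the strand of the gene, and has each CpG in capitals. The MGMT window is chr10:129466991-129467290 (plus strand), the ABCC4 window is chr13:95301402-95301701 (minus strand) and the ABCC2 window is chr10:99782390-99782689 (plus strand).
MGMT: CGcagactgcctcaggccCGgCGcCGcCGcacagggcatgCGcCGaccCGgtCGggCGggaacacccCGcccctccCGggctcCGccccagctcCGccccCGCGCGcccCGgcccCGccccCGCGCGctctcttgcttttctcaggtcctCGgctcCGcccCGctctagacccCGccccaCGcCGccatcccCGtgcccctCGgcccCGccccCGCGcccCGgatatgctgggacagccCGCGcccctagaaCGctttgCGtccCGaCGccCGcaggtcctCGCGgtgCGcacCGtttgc
ABCC4: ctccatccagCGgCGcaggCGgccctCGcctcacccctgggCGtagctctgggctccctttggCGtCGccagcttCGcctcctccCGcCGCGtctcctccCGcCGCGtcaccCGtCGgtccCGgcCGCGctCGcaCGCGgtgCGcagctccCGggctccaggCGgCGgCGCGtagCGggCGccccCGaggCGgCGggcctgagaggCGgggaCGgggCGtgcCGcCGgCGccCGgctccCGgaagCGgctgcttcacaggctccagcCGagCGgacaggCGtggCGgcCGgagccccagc
ABCC2: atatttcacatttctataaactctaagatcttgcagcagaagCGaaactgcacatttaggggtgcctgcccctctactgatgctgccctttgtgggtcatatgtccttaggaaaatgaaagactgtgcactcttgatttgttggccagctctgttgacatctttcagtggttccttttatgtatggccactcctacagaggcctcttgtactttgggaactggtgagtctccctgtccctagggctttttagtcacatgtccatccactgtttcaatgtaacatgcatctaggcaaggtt

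The MGMT window holds 45 CpG, more than 96.5% of the 35116 promoter windows in the RefSeq table, whose median is 14. The ABCC4 window, with 47 CpG, is as dense, and ABCC4 was at 14.9 TPM with DMSO and 16.2 TPM with CCA-1.1. The ABCC2 window has 1 CpG, and ABCC2 was the highest of the 7 ABC transporters. The RefSeq table has 14 windows for 7 of the 9 genes. Of those not printed, the ABCB1 windows hold 1 and 16 CpG, the ABCC5 window holds 26, the 3 MVP windows hold 4 to 5 and the 5 ABCG2 windows hold 3 to 35. Methylation was not measured in these samples, and the part of CpG number in the levels was not tested. The GC box GGGCGG, searched on both strands with overlaps counted, occurs 8 times in the MGMT window and in neither of the other printed windows. Among the windows not printed, the ABCC5 window holds 1 and ABCG2 windows hold up to 2, and 45.0% of all windows hold at least 1. The antioxidant response element core TGACNNNGC, searched in the same way, occurs once in the ABCC4 window. An ABCG2 window, not printed, also holds 1, and 13.3% of all windows hold it. The TATA box TATAAA, searched in the same way, occurs once in the ABCC2 window, at the end away from the gene start. The ABCC5 window, not printed, also holds 1 TATAAA, and 11.5% of all windows hold it. These matches describe letters and do not show that a factor binds there.

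ABCB1 (Entrez identifier 5243, chromosome 7 from 87503017 to 87713295) encodes P-glycoprotein, a drug efflux pump of broad range. It was at 0.03 TPM with DMSO and 0.01 TPM with CCA-1.1. Of its 4 transcripts in the table, only NM_001348946.2 was above 0. The smallest step of the table is 0.01 TPM, and rounding alone allows a difference between -0.06 and 0.01, so no direction can be read for ABCB1. Its close relative ABCB4, a phospholipid transporter looked at after the values were seen, was as low, at 0.06 TPM and 0.09 TPM.

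ABCG2 (Entrez identifier 9429, chromosome 4 from 88090264 to 88231626), the other broad drug pump of the set, was low but above the rounding limit. It was at 1.11 TPM with DMSO and 1.35 TPM with CCA-1.1, a difference of 0.16, and rounding allows 0.12 to 0.20. This direction rests on 1 transcript, NM_001348986.1, which was at 0.26 TPM and 0.67 TPM and held 23.4% of the gene with DMSO and 49.6% with CCA-1.1. In the RefSeq gene table this identifier has another version, and with rows matched by exact version the transcript drops out and the difference of ABCG2 becomes -0.14. With curated transcripts only it becomes 0.36, and with pseudocounts of 0.1 and 0.01 TPM it is 0.26 and 0.28. The other main transcripts were XM_017008852.3, at 0.44 TPM and 0.20 TPM, and NM_004827.3, at 0.37 TPM and 0.48 TPM. The gene LOC124900867, inside ABCG2, was at 0.26 TPM and 0.52 TPM, and since strand is not stated for the quantification, reads of overlapping genes may not be told apart.

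The 5 ABCC genes carried nearly all ABC drug transporter mRNA of the set. Their sum was 98.7 TPM with DMSO and 98.1 TPM with CCA-1.1, and the sum of all 7 ABC transporters was 99.9 TPM and 99.4 TPM, a difference of -0.0063. Within this level sum, ABCC2 held 39.7% with DMSO and 36.4% with CCA-1.1, ABCC3 20.7% and 22.8%, ABCC1 20.1% and 18.7%, and ABCC4 14.9% and 16.3%. ABCC5 held 3.42% and 4.46%, ABCG2 1.11% and 1.36%, and ABCB1 0.03% and 0.01%. The makeup of the sum thus differed by at most a few percentage points between the libraries.

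ABCC2 (Entrez identifier 1244, chromosome 10 from 99782640 to 99852594) encodes MRP2, an export pump for conjugates known best from the canalicular membrane of liver cells. It was at 39.6 TPM with DMSO and 36.2 TPM with CCA-1.1, a difference of -0.13. Its curated coding transcript NM_000392.5 held 81.1% of the gene with DMSO and 85.0% with CCA-1.1, at 32.1 TPM and 30.8 TPM, a difference of -0.06. Predicted mRNA transcripts held further parts, such as XM_006717630.4 at 1.97 TPM and 1.72 TPM. The predicted noncoding transcript XR_945604.4 was at 3.55 TPM with DMSO and 0.93 TPM with CCA-1.1, a difference of -1.24. ABCC2 was lower by 3.39 TPM with CCA-1.1. Its 3 lower transcripts summed to -4.19 TPM, with -2.62 TPM from this noncoding one, and its 3 higher transcripts to 0.80 TPM. Kallisto divides reads shared among transcripts by estimation, and whether these transcripts exchanged reads was not tested.

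ABCC1 (Entrez identifier 4363, chromosome 16 from 15949143 to 16143053) encodes MRP1, an exporter of glutathione conjugates. It was at 20.1 TPM with DMSO and 18.6 TPM with CCA-1.1, a difference of -0.10, while its transcripts differed far more. The curated transcript NM_004996.4 was at 6.82 TPM with DMSO and 1.83 TPM with CCA-1.1, a difference of -1.47, and its share of the gene was 33.9% and 9.83%. The predicted transcript XM_011522497.2 was at 6.83 TPM and 8.62 TPM, with shares of 34.0% and 46.3%, and the predicted XM_017023237.2 had 0 TPM with DMSO and 0.85 TPM with CCA-1.1. Summed over the 15 predicted transcripts, ABCC1 was at 13.3 TPM with DMSO and 16.8 TPM with CCA-1.1, a difference of 0.32 in the direction opposite to the curated transcript. Over all 16 transcripts, the 6 that were lower summed to -5.31 TPM and the 7 that were higher to 3.84 TPM. Kallisto assigns reads shared among transcripts by estimation, and whether the transcripts exchanged reads or the isoforms differed was not tested. ABCC6, a relative of ABCC1 looked at after the values were seen, was at 2.36 TPM and 1.69 TPM.

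ABCC3, ABCC4 and ABCC5 were each higher in the CCA-1.1 library. ABCC3 (Entrez identifier 8714, chromosome 17 from 50634881 to 50692253) encodes MRP3, an exporter of glucuronides and bile salts, and was at 20.7 TPM with DMSO and 22.6 TPM with CCA-1.1, a difference of 0.12. Both of its transcripts were higher, NM_003786.4 (19.4 TPM and 20.5 TPM) and NM_001144070.2 (1.28 TPM and 2.18 TPM). ABCC4 (Entrez identifier 10257, chromosome 13 from 95019835 to 95301451) encodes MRP4, an exporter of cyclic nucleotides and prostaglandins, and was at 14.9 TPM and 16.2 TPM, a difference of 0.11.

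Within ABCC4, the main transcript NM_005845.5 was at 10.6 TPM with DMSO and 12.4 TPM with CCA-1.1, while NM_001301829.2 (1.22 TPM and 0.24 TPM) and NM_001301830.2 (1.33 TPM and 0.53 TPM) were lower; the last 2 are named after their values were seen. The noncoding gene LOC102724149, which overlaps the start of ABCC4, was at 3.60 TPM and 1.32 TPM. ABCC5 (Entrez identifier 10057, chromosome 3 from 183919934 to 184017884) encodes MRP5, an exporter of cyclic nucleotides and nucleotide analogs. It was at 3.42 TPM with DMSO and 4.43 TPM with CCA-1.1, and its difference of 0.30 was the largest of the 9 genes in size. With a pseudocount of 0.1 or 0.01 TPM in place of 1 TPM its difference was 0.36 or 0.37, past the limit of 0.32. Of the genes whose mean was 1 to 5 TPM, 5% were below -0.60 and 5% above 0.88, so ABCC5 lay well inside the spread of genes at its level. Of its 11 transcripts 5 were higher and 2 lower, and the highest was NM_005688.4, at 1.74 TPM and 2.06 TPM.

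MVP (Entrez identifier 9961, chromosome 16 from 29820394 to 29848039) encodes the major vault protein, the shell of the vault ribonucleoprotein particle, also known from drug resistant cells as lung resistance-related protein. It was at 109.2 TPM with DMSO and 99.7 TPM with CCA-1.1, a difference of -0.13. Its main transcript NM_005115.5 was at 89.3 TPM and 78.6 TPM, while NM_017458.3 was at 19.2 TPM and 20.8 TPM. The gene PAGR1, which overlaps the start of MVP, was at 27.7 TPM with DMSO and 25.2 TPM with CCA-1.1. The other protein genes of the vault were both measured. PARP4, the vault poly(ADP-ribose) polymerase, was at 20.0 TPM and 25.03 TPM, a difference of 0.31, and TEP1, which binds vault RNA, was at 4.40 TPM and 4.06 TPM, a difference of -0.09.

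At transcript level, 61 rows of the table belong to the 9 genes, of which 46 were above 0 in at least 1 library and 16 had a mean of at least 1 TPM. Past 2-fold were 2 of the 61, ABCC1 NM_004996.4 and ABCC2 XR_945604.4, both lower with CCA-1.1 and both among the 16. Of all transcripts with a gene 2.23% passed 2-fold, and of those with a mean of at least 1 TPM 6.96% did. The calls among the 16 rest on 2 transcripts.

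**Figure D3:**
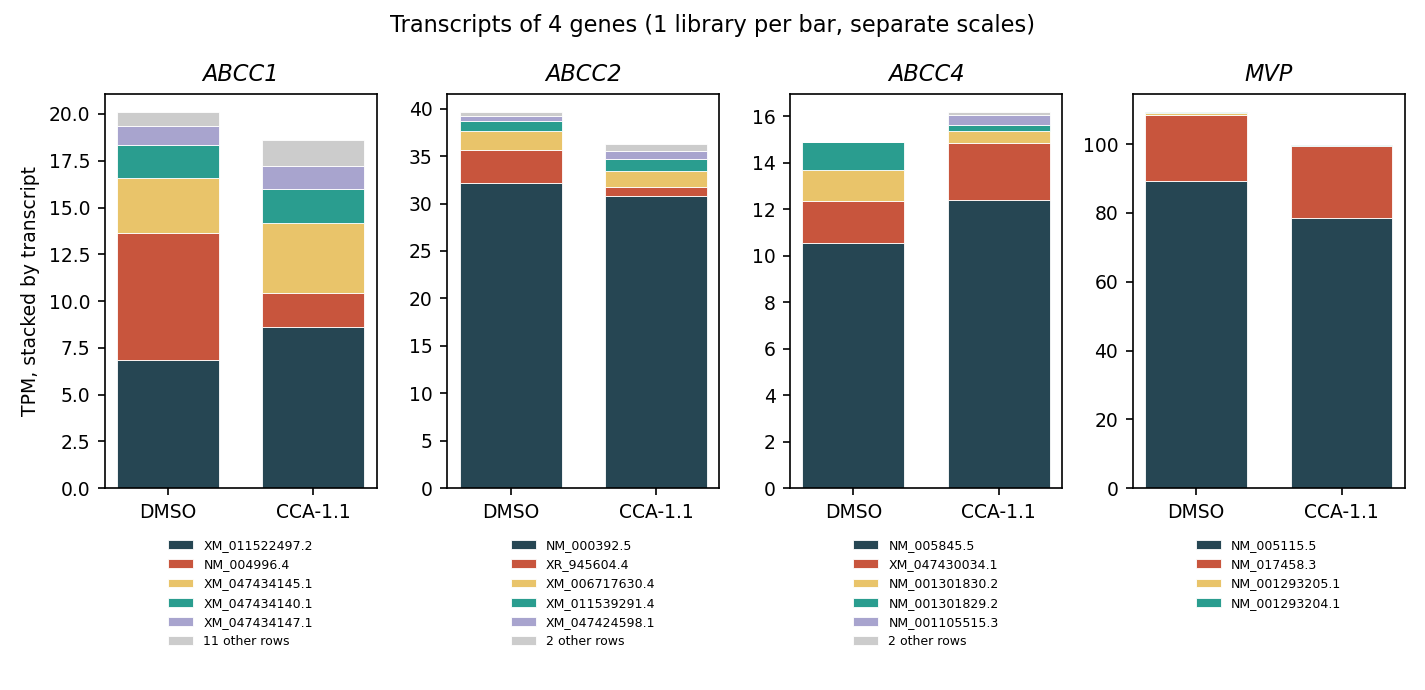
TPM in the DMSO and the CCA-1.1 library (1 library per bar) for ABCC1, ABCC2, ABCC4 and MVP, stacked by transcript, each gene with its own scale starting at 0. The bars of a gene are of similar height, while the part of ABCC1 NM_004996.4 is 6.82 TPM and 1.83 TPM and that of ABCC2 XR_945604.4 is 3.55 TPM and 0.93 TPM.

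The rest of the ABC family was described from a list of 41 genes, of which 23 had a mean of at least 1 TPM. None passed 2-fold, 2 of the 23 were higher and 2 lower by more than 0.32, and their median difference was -0.03. TAP1, which moves peptides into the endoplasmic reticulum for presentation on MHC class I, had the highest mean and was at 88.8 TPM with DMSO and 63.7 TPM with CCA-1.1, a difference of -0.47. Its partner TAP2 was at 26.8 TPM and 20.5 TPM, a difference of -0.37. Higher were ABCA13 (5.16 TPM and 7.05 TPM, 0.39) and ABCE1, a factor of ribosome recycling that transports nothing (30.0 TPM and 37.9 TPM, 0.33). None of these 4 belongs to the drug pumps described above; TAP2 and ABCE1 are named because their values passed this limit.

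Uptake carriers and other exporters of drugs gave 22 genes, of which 8 had a mean of at least 1 TPM. Their median difference was -0.24, with 3 of the 8 past 0.32 in size, against 18.3% of all genes at this level. SLCO4A1, an organic anion uptake carrier, was the highest, at 71.4 TPM with DMSO and 55.6 TPM with CCA-1.1, a difference of -0.36. SLCO2B1 was at 10.0 TPM and 7.55 TPM (-0.36), and SLCO3A1 was at 4.05 TPM and 5.47 TPM (0.36).

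DNA repair genes were present, and some of them respond to the lesions left by methylating drugs. Mismatch repair, which turns unrepaired methylguanine into a lethal signal, gave 8 genes, of which 7 had a mean of at least 1 TPM and none passed 0.32. MSH6 was the highest, at 38.0 TPM with DMSO and 39.2 TPM with CCA-1.1, PMS1 had the highest difference (10.5 TPM and 12.8 TPM, 0.27), and MLH3 the lowest (7.90 TPM and 7.63 TPM, -0.04).

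Direct reversal and base excision repair gave 22 genes, not all of which act on lesions of methylating drugs. Of these, 21 had a mean of at least 1 TPM, and 1 of the 21 passed 0.32. This was PARP2, a polymerase that senses strand breaks, at 15.8 TPM and 21.7 TPM, a difference of 0.43. NTHL1 had the lowest difference, at 23.4 TPM and 21.3 TPM (-0.13). The median difference was 0.10 for mismatch repair and 0.03 for direct reversal and base excision repair.

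Of 16 genes for factors that are known to regulate transporter genes, 13 had a mean of at least 1 TPM, and their median difference was 0.01. NR1I2, the pregnane X receptor that induces ABCB1 in liver and gut, was listed at 0 in both libraries. YBX1 was the highest, at 833.9 TPM with DMSO and 849.0 TPM with CCA-1.1. NFE2L2, the antioxidant response factor NRF2, had the highest difference, at 85.8 TPM and 95.7 TPM (0.16), and TWIST1 the lowest, at 22.0 TPM and 16.9 TPM (-0.36), the only one of the 13 past 0.32.

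Glutathione synthesis and conjugation, which supplies substrates of the ABCC pumps, gave 16 genes, of which 14 had a mean of at least 1 TPM and a median difference of -0.04. MGST1 was the highest, at 1036.9 TPM and 1099.1 TPM. GSTP1 had the highest difference, at 51.8 TPM and 62.2 TPM (0.26). GSTM1 had the lowest, at 8.97 TPM and 6.90 TPM (-0.34), and was the only one of the 14 past 0.32.

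The cell line label was compared with marker levels. Of 10 markers of glioblastoma lines, FN1 (11241 TPM with DMSO), CHI3L1 (4947 TPM), VIM (3217 TPM), CD44 (607.4 TPM) and TNC (162.7 TPM) were high and the stem and progenitor markers NES (7.53 TPM), OLIG2 (5.64 TPM) and SOX2 (1.87 TPM) were low. The astrocyte markers GFAP (0.41 TPM) and S100B (listed at 0) were low or at 0 in the DMSO library, with 0.57 TPM and 0 with CCA-1.1. CD44 and TNC were the 2 of the 10 past 0.32, both lower with CCA-1.1, at 472.6 TPM for CD44 and at 162.7 TPM and 96.7 TPM for TNC. Of 10 markers of other brain and blood cells, 4 had a mean of at least 1 TPM, and the list summed to 55.2 TPM with DMSO and 50.6 TPM with CCA-1.1, most of it SYP at 47.4 TPM and 43.2 TPM. The other 3 of the 4 were PECAM1 (3.41 TPM and 2.71 TPM), RBFOX3 (1.83 TPM and 2.45 TPM) and CD14 (1.82 TPM and 1.54 TPM). The leukocyte marker PTPRC was at 0.09 TPM and 0.07 TPM, and AIF1 was listed at 0. The part of these marker levels in the differences above was not tested.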

How the data were processed

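Total RNA of U87 cells treated for 72 h with DMSO or CCA-1.1 was enriched for mRNA and sequenced on an Illumina instrument, with 1 library per condition. Per the labels and the methods of the study, reads were checked with FastQC 0.11.9 and MultiQC 1.1, and transcripts were quantified with Kallisto against GRCh38.p14. The deposited values are TPM per RefSeq transcript, rounded by the authors to 2 decimals, with column totals of 999999 and 1000000; read depth does not follow from them. The authors tested with edgeR, which needs counts and was not run here.

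Of 177816 transcripts, 169966 matched 1 of 41582 gene symbols of a RefSeq table (GRCh38.p14) with versions ignored, and TPM was summed per gene; the unmatched rows held 0.941% (DMSO) and 0.967% (CCA-1.1) of the TPM. Differences used a pseudocount of 1 TPM. Differences beyond 1 (2-fold, after the study's criterion) or 0.32 in size were counted. Rounding limits moved each transcript by its rounding error.

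The 9 genes and the gene lists were chosen with earlier results of these data known. Named were the 9 genes, each gene's highest transcript and those past 2-fold, and per list the highest gene and the largest difference in each direction; further transcripts and genes were named after their values were seen. One gene under this rule is not reported here. Coordinates and promoters are RefSeq's, with promoter windows found for 7 of the 9 genes. Alternatives were pseudocounts of 0.1 and 0.01 TPM, a minimum mean of 1 TPM, median-ratio scaling over genes averaging at least 10 TPM, curated transcripts only, and matching by version. The difference calculation was tested on simulated data built from genes averaging at least 10 TPM, with planted changes larger than 2-fold. That test does not cover genes at lower TPM or differences as small as those of the 9 genes. Python 3.11.15, numpy 2.4.6, pandas 2.3.3 and matplotlib 3.10.9 were used.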

Additional observations from a re-analysis of the deposited data

How the results depend on the processing

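No paired analysis was possible because each condition had 1 library, and no library could be left out. Of 52 recomputed differences of the 9 genes, 45 moved by less than 0.1 on the log2 scale, a limit set in place of a replicate spread, and 7 moved by more. Many of the 45 could not move, so their number does not measure stability. A minimum mean only leaves genes out, and MGMT is at 0 under every setting. One changed sign, ABCG2 with versioned identifiers (-0.14 against 0.16), because 1 transcript was no longer matched.

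The number of the 9 genes past 2-fold was 1 in place of 0 with curated transcripts only; this was ABCC1 at -1.47, whose 15 predicted transcripts are then left out. ABCB1 reached -1.0 with a pseudocount of 0.01, which is the threshold itself and rests on 0.03 TPM and 0.01 TPM. The number past 0.32 was 1 with a pseudocount of 0.1 (ABCC5, 0.36) and 2 with 0.01 (ABCC5, 0.37, and ABCB1), and was 2 with curated transcripts only (ABCC1, and ABCG2 at 0.36), in place of 0. Transcripts of the 9 genes past 2-fold numbered 8 with a pseudocount of 0.1, 19 with 0.01 and 1 with curated transcripts only, in place of 2. Over all genes, 2983 passed 2-fold with a pseudocount of 0.1 and 6701 with 0.01, in place of 636. The difference of the summed ABC transporters stayed between -0.05 and -0.0060 under all 6 alternatives. Median-ratio scaling used a factor of 1.01. Without read counts, values near 0 such as those of MGMT and ABCB1 carry no known precision.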
